A study of Homo sapiens with 8 samples.

Results

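Metallothioneins are small cysteine-rich proteins that bind zinc, copper and cadmium. The 7 genes described here are the metallothioneins MT2A, MT1X, MT1F, MT1E and MT1G, the zinc-sensing transcription factor MTF1, and the zinc exporter SLC30A1. They were found by gene symbol among 60754 genes and spike-in sequences, and 6 of the 7 reached a TPM (a length-corrected share of all transcripts) of 1 in at least 1 of 8 RNA-seq libraries. MT1G did not. In both clones studied, MT1X and MT1F were higher in resistant than in parental cells. MT2A was lower in resistant than parental cells of clone C17.2 (12.2 ± 1.66 against 19.4 ± 1.12 TPM) and higher in those of clone C3.2 (26.6 ± 8.32 against 9.33 ± 1.84 TPM; mean ± SD, n = 2 libraries each).

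The libraries came from SEM, a human cell line of B-lineage acute lymphoblastic leukemia (B-ALL) with a rearranged KMT2A gene. In these cells both CTCF alleles carry a miniAID-mClover3 tag. All 4 groups also carry a lentiviral OsTIR1(F74G) cassette with Zeocin resistance, expressed from the MND promoter, so that the auxin analog 5-Ph-IAA directs tagged CTCF to degradation. The clones C17.2 and C3.2 each derive from a single cell, and each gave 2 libraries of untreated parental cells and 2 of resistant cells, which had been kept for 36 days in 1 μM 5-Ph-IAA with 100 μg/ml Zeocin and were taken off the drugs before harvest. Per the study's results, resistant cells of C3.2 carried a mutated miniAID tag, and those of C17.2 a truncated CTCF. In its immunoblots, resistant C17.2 also regained the full-length tagged CTCF once the drugs were removed. No source says that the 2 libraries of a group are separate cultures, so SDs and p-values measure only the spread between these libraries, which may be technical. The library titles carry running numbers in 2 separate ranges, 1 for each clone, and what they mark is not given in the sources used here. If it is a batch, resistant and parental cells were compared within it, and between the clones it cannot be told apart from the clone.

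All 6 B-lineage markers reported here (among them CD79A and PAX5) were present in every library, at 4.33 to 193 TPM. They were not level between groups: IGLL1, a part of the pre-B-cell receptor, was 89.6 and 80.6 TPM in parental and 20.1 and 20.5 TPM in resistant C17.2, and 143 and 166 TPM and then 29.96 and 31.7 TPM in C3.2. CD79B, a signaling subunit of the B-cell receptor, was 14.4 and 12.2 TPM in parental and 4.61 and 4.33 TPM in resistant C17.2, and 15.3 TPM in both parental libraries and then 7.29 and 7.49 TPM in C3.2. PAX5 went the other way, from 173 and 161 to 193 and 185 TPM in C17.2. In C3.2 it went from 116 and 124 to 153 and 151 TPM. CD79A was lower in resistant libraries of both clones. EBF1 and VPREB1 overlapped between parental and resistant libraries in C17.2 and were lower in resistant C3.2. The 3 T-cell markers did not exceed 0.25 TPM. CTCF mRNA was 32.2 to 35.4 TPM in parental and 41.5 to 54.7 TPM in resistant libraries; the degron acts on the protein, so this does not check the depletion. Of the fibroblast markers, COL1A2 was listed at 0 in all 8 libraries and COL1A1 was not. COL1A1 was at 2.63 and 2.97 TPM in parental and at 6.50 and 7.45 TPM in resistant libraries of C17.2, and at 2.24 to 3.78 TPM in C3.2. The 3 myeloid markers summed to 0.54 to 0.70 TPM in parental and 1.17 to 3.18 TPM in resistant libraries. The part of these in the metallothionein levels was not tested. The files give no read counts, so the depth is unknown.

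MTF1 is activated when free zinc rises and then binds metal response elements (MREs) in the promoters of metallothionein genes and of SLC30A1. Metallothioneins bind zinc and copper in the cell, and SLC30A1 moves zinc out across the plasma membrane. Glucocorticoids, oxidants and heat also induce metallothioneins, and MT2A is usually the main form in human cells. The genes were chosen by name with the resistant-against-parental values of these libraries already known. For that contrast the values below are therefore a description, and no conclusion is drawn from a test of it.

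The 5 metallothioneins lie on chromosome 16 within 75.6 kb (GRCh38, Gencode release 44). MT2A is at chr16:56608584-56609497 and is followed on the plus strand by MT1E (chr16:56625475-56627112), MT1F (chr16:56657731-56660698) and MT1X (chr16:56682470-56684196), while MT1G (chr16:56666730-56668065) is on the minus strand. MTF1 (chr1:37809574-37859592) and SLC30A1 (chr1:211571568-211579161) are both on the minus strand of chromosome 1. MT1X overlaps the lncRNA ENSG00000259827, with which it shares 67 of its 305 windows of 100 bases (22.0%). This lncRNA was listed at 0 in all 8 libraries, and how reads were divided within that overlap was not tested. MT2A, MT1F, MT1E and MT1G shared no such window with a transcript of another gene.

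RefSeq promoters (GRCh38.p14) were found for 4 of the 7 genes: MT2A, MT1X, SLC30A1 and MTF1. MT1E, MT1F and MT1G were not among them. The 250 bases before each start are shown 5′ to 3′ because they hold the elements through which MTF1 is known to act. Capitals mark each match to the MRE core, TGCACNC or TGCGCNC on either strand. The windows are chr16:56608334-56608583 (plus strand), chr16:56682220-56682469 (plus), chr1:211579162-211579411 (minus) and chr1:37859593-37859842 (minus), in the order below.
MT2A: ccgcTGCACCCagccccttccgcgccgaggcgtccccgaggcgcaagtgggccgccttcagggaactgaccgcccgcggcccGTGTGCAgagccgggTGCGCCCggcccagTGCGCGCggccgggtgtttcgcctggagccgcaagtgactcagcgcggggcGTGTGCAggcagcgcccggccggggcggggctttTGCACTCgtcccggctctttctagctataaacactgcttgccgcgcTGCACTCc
MT1X: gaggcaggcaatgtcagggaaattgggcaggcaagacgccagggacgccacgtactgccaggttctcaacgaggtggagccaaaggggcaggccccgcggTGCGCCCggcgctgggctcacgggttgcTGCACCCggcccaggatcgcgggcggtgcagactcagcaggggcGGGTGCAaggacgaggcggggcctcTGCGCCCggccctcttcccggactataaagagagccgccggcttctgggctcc
SLC30A1: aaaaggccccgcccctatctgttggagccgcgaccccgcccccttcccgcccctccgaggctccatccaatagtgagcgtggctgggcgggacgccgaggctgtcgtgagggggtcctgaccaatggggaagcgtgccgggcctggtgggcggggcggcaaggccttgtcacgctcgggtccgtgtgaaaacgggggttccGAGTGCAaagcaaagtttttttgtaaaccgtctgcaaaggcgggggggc
MTF1: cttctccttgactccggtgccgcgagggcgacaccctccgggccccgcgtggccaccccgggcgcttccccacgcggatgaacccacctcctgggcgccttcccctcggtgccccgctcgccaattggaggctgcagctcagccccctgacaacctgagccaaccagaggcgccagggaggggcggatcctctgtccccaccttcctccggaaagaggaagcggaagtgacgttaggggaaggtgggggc

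The MT2A window held 7 MRE matches, and 0.0313% of 35116 RefSeq promoters of the same length held as many. They lay at 246, 168, 153, 139, 88, 54 and 8 bases before the start, counted at the first base of each. MT1X held 4 matches, at 150, 122, 78 and 53 bases, a number reached by 0.370% of promoters. SLC30A1 held 1, at 49 bases, where 24.8% of promoters held at least 1, and MTF1 held none. The GC box GGGCGG, to which SP1 is known to bind, matched 6 times in SLC30A1 (2.22% of promoters had as many), 2 times each in MT2A and MT1X, and 1 time in MTF1. One GC box of MT1X shared bases with an MRE match, and a pair of GC boxes of SLC30A1 shared a base. The AP-1 site TGACTCA matched 1 time in MT2A and in none of the other 3 windows, and it was held by 4.203% of promoters. The glucocorticoid receptor half-site AGAACA, held by 12.4% of promoters, matched in none of the 4 windows. A match describes letters and no more, and a missing match says only that the letters are not in this window.

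By mean TPM over the 8 libraries, MT1X (25.3 TPM) stood above 74.0% of the 11210 tested protein-coding genes, MT2A (16.9 TPM) above 60.6% and MT1F (12.7 TPM) above 50.7%. MTF1 (5.88 TPM) stood above 27.2% of them, SLC30A1 (2.81 TPM) above 14.2% and MT1E (0.981 TPM) above 3.604%. MT1X thus had the highest mean TPM, a per-length scale, of the metallothioneins, but this order depended on the group: in parental C17.2 MT1X (19.7 ± 2.46 TPM) and MT2A (19.4 ± 1.12 TPM) overlapped, and in 1 of its libraries MT2A was higher.

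**Figure D1:**
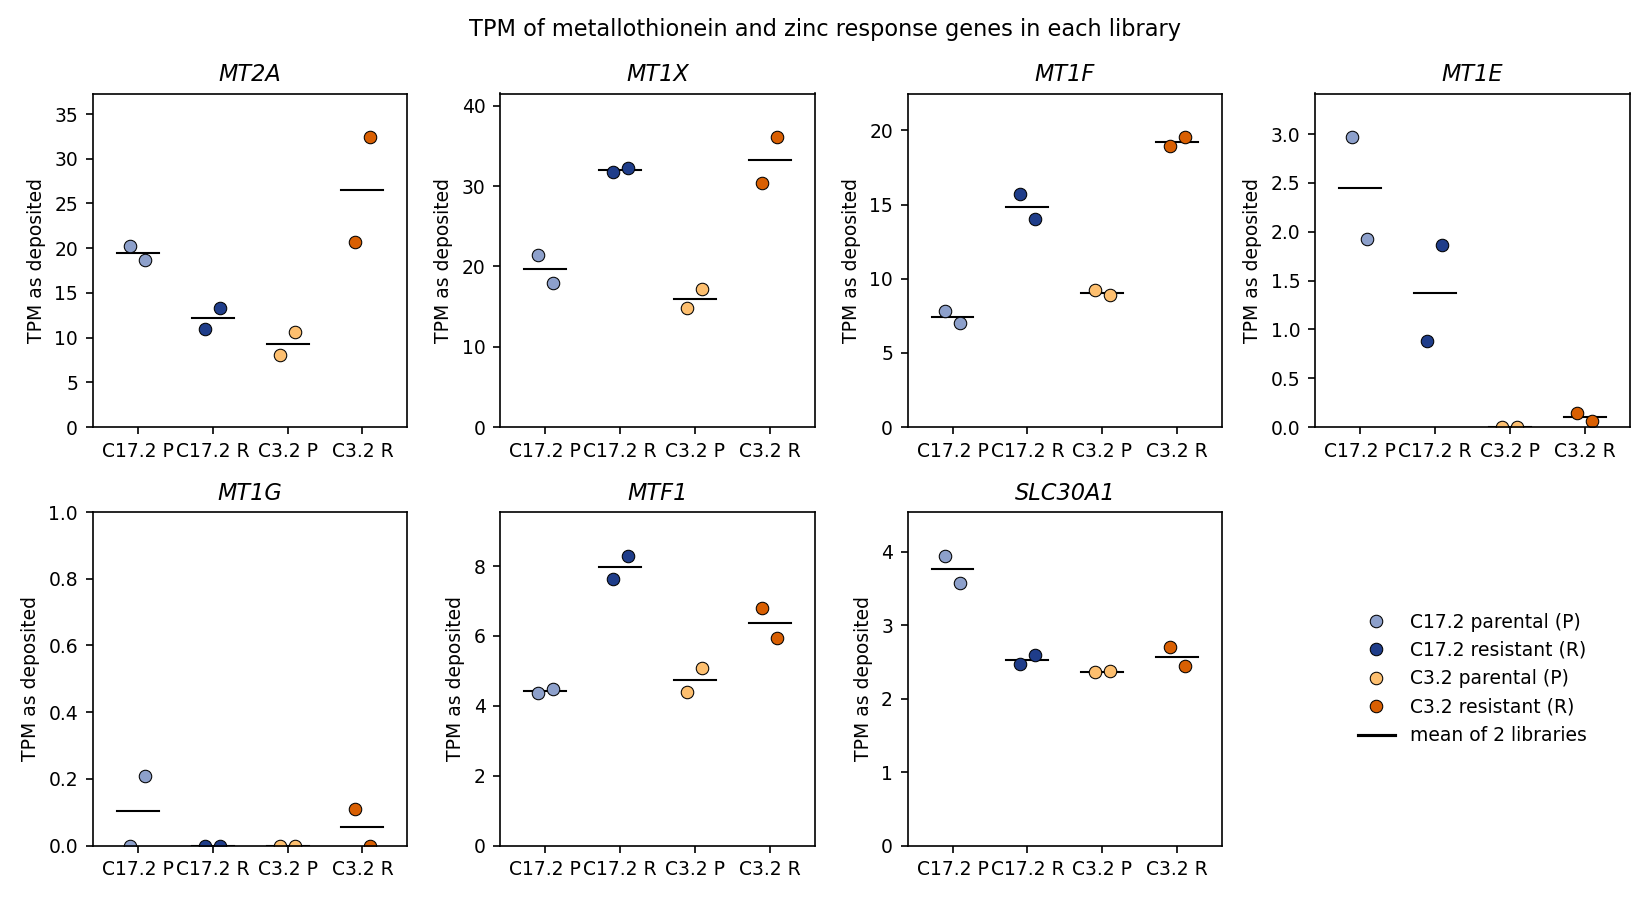
Deposited TPM (vertical axis, linear from 0) of each of the 7 genes in the 8 libraries; points are libraries and horizontal lines the means of 2, with P for parental and R for resistant cells of C17.2 and C3.2. MT2A lies at 10.98 and 13.32 TPM in resistant C17.2, below its parental points, and at 20.66 and 32.43 TPM in resistant C3.2, above them.

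MT2A encodes the metallothionein that is usually the main form in human cells. It was listed at 20.22 and 18.64 TPM in parental and at 10.98 and 13.32 TPM in resistant libraries of C17.2. In C3.2 it was 8.03 and 10.63 TPM in parental and 20.66 and 32.43 TPM in resistant libraries. Parental and resistant libraries did not overlap in either clone, and the order was opposite. The log2 change, on log2(scaled TPM + 1), was -0.79 (SE 0.228) in C17.2 and 1.34 (SE 0.228) in C3.2, and the mean TPM ratio was 0.625 and 2.85. The 2 resistant libraries of C3.2 were the farthest apart of any group, so the size of that change depends on which is used (0.99 to 1.69 on leaving out each library in turn). From highest to lowest on TPM as deposited, the groups were C3.2 resistant, C17.2 parental, C17.2 resistant and C3.2 parental. The first and second of these nearly touched (20.66 against 20.22 TPM), as did the lower pair (10.98 against 10.63 TPM). On scaled TPM the lower pair overlapped (9.79 and 11.52 in resistant C17.2 against 8.99 and 11.53 in parental C3.2). In bulk RNA, a change in the share of cells that express a gene and a change per cell cannot be told apart.

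MT1X is a metallothionein of the MT1 group. It was listed at 21.47 and 17.99 TPM in parental and at 31.81 and 32.27 TPM in resistant libraries of C17.2. In C3.2 it was 14.84 and 17.17 TPM in parental and 30.42 and 36.11 TPM in resistant libraries. Both clones had resistant libraries above parental ones. The resistant libraries of the 2 clones overlapped on TPM as deposited. On scaled TPM they did not (28.36 and 27.91 in C17.2 against 31.2 and 38.98 in C3.2). The log2 change was 0.52 (SE 0.114) in C17.2 and 0.95 (SE 0.114) in C3.2.

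MT1F, another MT1 gene, was listed at 7.82 and 7.02 TPM in parental and at 15.69 and 14.02 TPM in resistant libraries of C17.2. In C3.2 it was 9.24 and 8.90 TPM in parental and 18.95 and 19.56 TPM in resistant libraries. Resistant libraries were above parental ones in both clones, with mean TPM ratios of 2.00 and 2.12. The log2 change was 0.76 (SE 0.0818) in C17.2 and 0.95 (SE 0.0818) in C3.2. The 4 groups did not overlap in the order C3.2 resistant, C17.2 resistant, C3.2 parental and C17.2 parental.

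MT1E, also of the MT1 group, was low, and was above 0.15 TPM only in the libraries of C17.2. It was listed at 2.97 and 1.93 TPM in parental and at 0.88 and 1.86 TPM in resistant libraries of that clone, which lay close without overlapping. In C3.2 both parental libraries were listed at 0, and the resistant ones at 0.15 and 0.06 TPM, so no fold is given there. The log2 change in C17.2 was -0.64 (SE 0.224), and it was -0.37 without resistant replicate 1 and -0.91 without resistant replicate 2. MT1G was listed at 0.21 TPM in 1 parental library of C17.2, at 0.11 TPM in 1 resistant library of C3.2, and at 0 in the other 6. It gave no comparison.

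MTF1 was listed at 4.38 and 4.48 TPM in parental and at 7.63 and 8.30 TPM in resistant libraries of C17.2. In C3.2 it was 4.40 and 5.08 TPM in parental and 6.81 and 5.95 TPM in resistant libraries. Resistant libraries were above parental ones in both clones, and the parental libraries of the 2 clones overlapped on TPM as deposited, although not on scaled TPM. The log2 change was 0.58 (SE 0.0788) in C17.2 and 0.31 (SE 0.0788) in C3.2. MTF1 mRNA does not measure the activity of the protein, which zinc controls.

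SLC30A1 was listed at 3.95 and 3.57 TPM in parental and at 2.47 and 2.59 TPM in resistant libraries of C17.2. In C3.2 it was 2.36 and 2.38 TPM in parental and 2.7 and 2.44 TPM in resistant libraries. The parental libraries of C17.2 stood above the other 6 on both scales. On scaled TPM the resistant libraries of C17.2 (2.202 and 2.24) lay below all libraries of C3.2 (2.582 to 2.77). On TPM as deposited they overlapped those of resistant C3.2. The log2 change was -0.54 (SE 0.0726) in C17.2 and 0.04 (SE 0.0726, 95% interval -0.14 to 0.21) in C3.2. In C3.2 the groups overlapped on scaled TPM, although not on TPM as deposited.

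**Figure D2:**
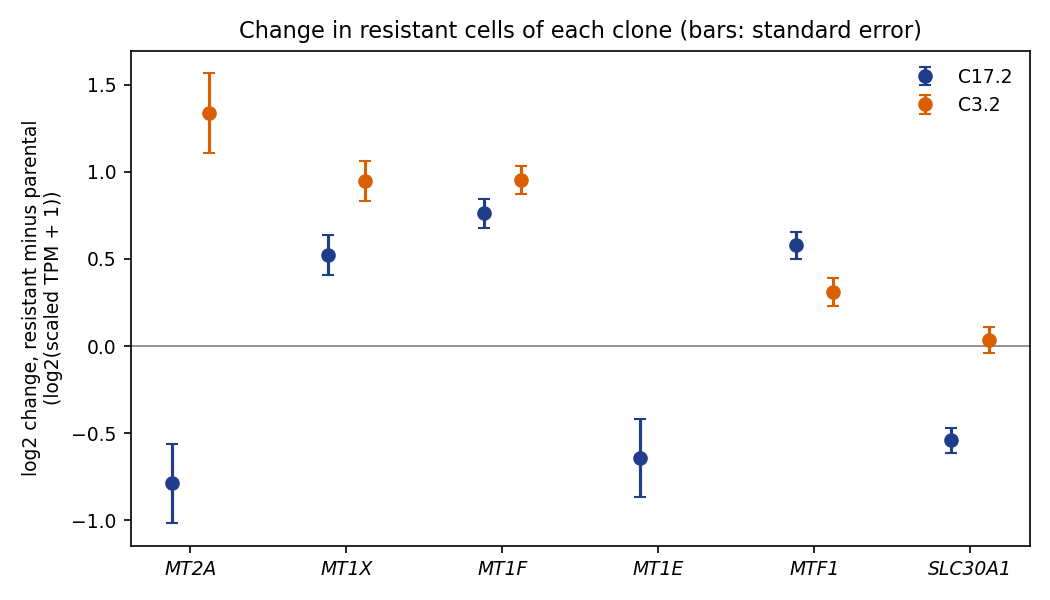
Log2 change, resistant minus parental, on log2(scaled TPM + 1) for 6 genes; points are the fitted change in each clone and bars its standard error. MT1E has no point for C3.2, where it was listed at 0 in both parental libraries. MT2A lies at -0.79 in C17.2 and 1.34 in C3.2, and MT1X, MT1F and MTF1 lie above 0 in both clones.

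Of the 6 genes fitted, 5 had an adjusted p under 0.05 (limma, Benjamini-Hochberg over all 15614 tested genes) for resistant against parental cells of C17.2, where 27.3% of all tested genes did. For C3.2 these were 3 of 6 (MT2A, MT1X and MT1F), where 11.4% of all tested genes did. Both resistant libraries were above both parental ones on scaled TPM for 3 of 6 genes in C17.2 (33.3% of all tested genes) and below for 3 of 6 (32.7%), and above for 5 of 6 in C3.2 (27.8%). The C3.2 count includes MT1E, listed there at 0.15 and 0.06 TPM against 0 in both parental libraries. MT1E passed the filter on low values only through C17.2. Nothing is read from these counts, since the genes were chosen with this contrast known.

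The parental cells of the 2 clones were also compared with limma. The same parental libraries enter the contrast that was known when the genes were chosen. For these genes the adjusted p-values below are therefore a description too, and nothing is read from them. Of all tested genes, 22.5% differed between them. MT1E is not tested here, since it passed the filter on low values only through libraries of C17.2. SLC30A1 was lower in C3.2 (log2 difference -0.38, SE 0.0726, adjusted p = 0.0141), and MT1F was higher (0.41, SE 0.0818, adjusted p = 0.016). MT2A was lower (-0.84, SE 0.228, adjusted p = 0.0432), a call lost in 6 of 8 fits that left out 1 library, with adjusted p up to 0.215. The MT1F and SLC30A1 calls were each lost in 4 of 8, when any 1 of the 4 parental libraries was left out. The call of MT1F was also lost on TPM as deposited (0.26). MT1X (-0.13, 95% interval -0.40 to 0.15, adjusted p = 0.47) and MTF1 (0.22, 95% interval 0.03 to 0.41, adjusted p = 0.102) did not pass.

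Near-identical copies can trade reads in a gene-level estimate, so the metallothionein family was also summed. The table lists 20 metallothionein genes and pseudogenes. Of the 15 that are not described above, 12 were listed at 0 in every library and 3 were not. Among the latter, the pseudogene MT1XP1 was listed at 0.65 and 1.27 TPM in parental C17.2, at 0.58 TPM in 1 parental library of C3.2 and at 0 in all 4 resistant libraries. MT1H and MT1JP were each above 0 in 1 library only.

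The summed TPM was 53.2 and 47.1 in parental and 59.4 and 61.5 in resistant libraries of C17.2. In C3.2 the sum was 32.7 and 36.7 in parental and 70.3 and 88.2 in resistant libraries. After scaling, the log2 ratio of group means was 0.11 in C17.2 and 1.13 in C3.2. On TPM as deposited that of C17.2 was 0.27, where the median of all tested genes was itself 0.13 higher in resistant cells. Deposited sums of parental and resistant libraries did not overlap in either clone.

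Shares of that sum do not depend on how libraries are scaled. MT2A made up 38.0 and 39.6% of it in parental and 18.5 and 21.7% in resistant libraries of C17.2, against 24.6 and 29.0% and then 29.4 and 36.8% in C3.2. MT1X took up 39.3 ± 1.53% in parental and 53.1 ± 0.771% in resistant cells of C17.2 (SD, n = 2), and 46.1 ± 0.976% and 42.1 ± 1.64% in C3.2. The ratio of MT1X to MT2A was 1.06 and 0.965 in parental and 2.90 and 2.42 in resistant libraries of C17.2. In C3.2 it was 1.85 and 1.61 in parental and 1.47 and 1.11 in resistant libraries. The order of parental and resistant libraries was thus opposite in the 2 clones, without overlap in either. The ratio of MT1X to MT1F varied less, from 1.61 to 2.75 over the 8 libraries.

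**Figure D3:**
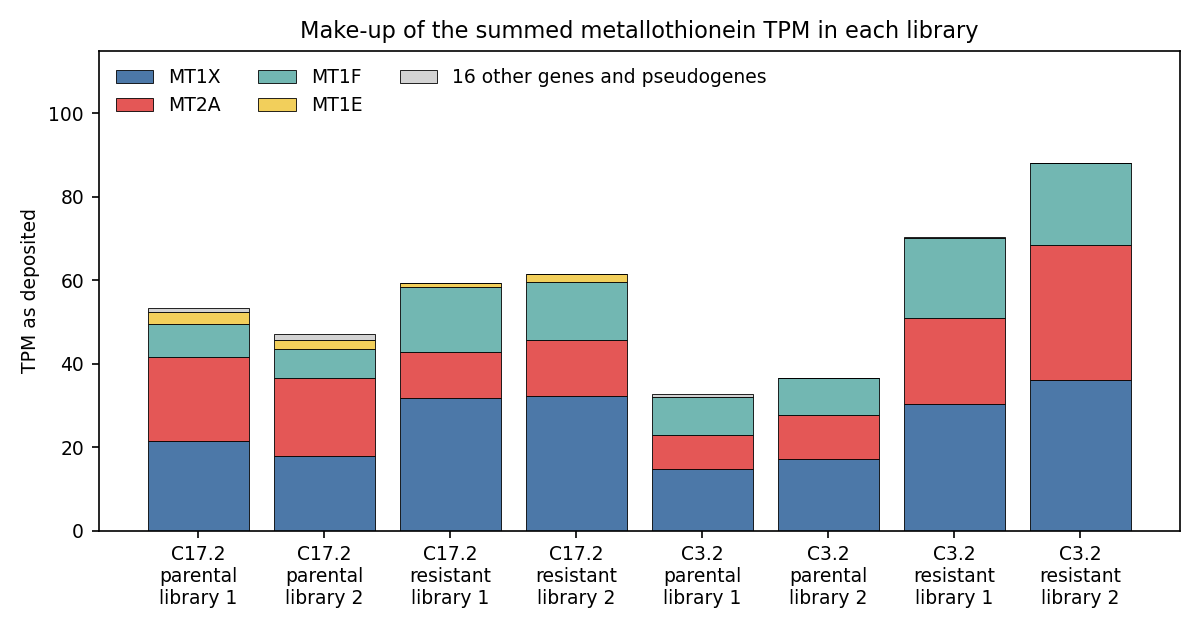
Summed TPM of the 20 listed metallothionein genes and pseudogenes in each library (vertical axis, linear from 0), with each block the part of 1 gene; the key names the genes. The sum is 47.1 to 61.5 TPM in C17.2 and, in C3.2, 32.7 and 36.7 TPM in parental against 70.3 and 88.2 TPM in resistant libraries, and the MT2A block is the smallest share of the sum in resistant C17.2.

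Over the 8 libraries, MT1X and MT1F varied together (Pearson r = 0.88), as did each with MTF1 (0.78 and 0.82). MTF1 and SLC30A1 varied inversely (-0.83). MT2A had a coefficient of 0.55 with MT1X, 0.38 with MT1F and -0.01 with MTF1. These points fall into 4 groups of 2 libraries and share a clone, so the coefficients are a description. By the same measure, among 533 protein-coding genes whose mean TPM was 5 or more and whose log2 range was 1 or more, those most like MT2A were the death receptor TNFRSF10B (0.89), the aminopeptidase ANPEP (0.87), HLA-DMB (0.86), the matrix metalloproteinase MMP17 (0.81) and the receptor SIRPA (0.80). TNFRSF10B was listed at 7.02 and 6.49 TPM in parental and 5.57 and 6.72 TPM in resistant C17.2, and at 3.26 and 3.40 TPM and then 7.41 and 8.01 TPM in C3.2. ANPEP was listed at 39.5 and 37.3 TPM and then 30.8 and 32.8 TPM in C17.2, and at 18.8 and 19.2 TPM and then 44.4 and 39.9 TPM in C3.2. On TPM as deposited, both were thus lowest in parental C3.2, as was MT2A.

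The nearest tested protein-coding genes on either side of the metallothionein cluster, BBS2 at 25.9 kb and NUP93 at 45.9 kb, did not pass the test in either clone. BBS2, a subunit of the ciliary BBSome, had a log2 change of 0.38 (SE 0.160, adjusted p = 0.13, limma) in C17.2 and -0.10 (SE 0.160, adjusted p = 0.726) in C3.2. NUP93, a nuclear pore protein, had 0.13 and -0.02. Of the 5 nearest tested genes on each side, 3 of 10 fell in C17.2 and none rose, where 27.3% of all tested genes were called in either direction: HERPUD1 (-1.88), an endoplasmic reticulum stress gene, CPNE2 (-0.87) and NLRC5 (-0.58), a regulator of MHC class I genes. In C3.2 HERPUD1 passed (-0.36, adjusted p = 0.0422, limma), a call that held in 1 of 8 fits without 1 library and in 2 of 8 other processing settings, and the other 9 did not pass. HERPUD1, CPNE2 and NLRC5 lie 248 to 408 kb beyond the cluster. The NLRC5 change in C17.2 was -0.70 to -0.46 on leaving out each library in turn. Its call was lost without parental replicate 2 of C17.2. The median of the 10 was -0.07 in both clones.

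Genes outside the 7 were tested in lists of related functions, with 65 genes tested of 96 listed. In C17.2, 29 of the 65 passed (19 higher, 10 lower), and in C3.2, 13 passed (5 higher, 8 lower). Of all tested genes, 13.4% were called higher and 13.9% lower in C17.2, and 4.46% higher and 6.90% lower in C3.2. These shares depend on scaling: TPM as deposited gave 3849 genes higher and 1279 lower in C17.2 in place of 2094 and 2167, and 716 and 523 in C3.2 in place of 696 and 1077. The median log2 change over the 65 was 0.06 in C17.2 and -0.001 in C3.2, against medians of 0.0 over all tested genes.

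None of the 5 tested zinc exporters of the SLC30 family other than SLC30A1 passed in either clone (medians 0.06 and 0.14), although 1 was called higher in C17.2 on TPM as deposited. Among 11 tested zinc importers of the SLC39 family, 3 rose and 1 fell in C17.2 and 1 fell in C3.2. SLC39A7, which releases zinc from the endoplasmic reticulum and Golgi, rose in C17.2 (0.36, SE 0.0679, adjusted p = 0.0102). SLC39A9 fell there (-0.43, SE 0.0531, adjusted p = 0.00224). SLC39A6, a plasma membrane importer, rose in C17.2 (17.97 and 16.10 to 22.21 and 23.14 TPM; 0.24, SE 0.0495) and fell in C3.2 (17.01 and 18.56 to 15.43 and 14.61 TPM; -0.29, SE 0.0495). The difference between those changes passed (0.53, SE 0.0700, adjusted p = 0.00815), as did that of 9.91% of all tested genes. The single-clone calls of SLC39A6 each held in 5 of 8 fits without 1 library, and that in C3.2 was also lost on TPM as deposited. The median of the importers was 0.17 in C17.2 and -0.04 in C3.2.

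Metallothioneins also bind copper. Of 10 tested copper-handling genes, 4 rose and none fell in C17.2 (median 0.24, and 7 rose on TPM as deposited), whereas none passed in C3.2 (median 0.04). SOD1, the copper-zinc superoxide dismutase, rose in C17.2 from 85.9 and 82.5 to 126 and 140.03 TPM (0.49, SE 0.0609, adjusted p = 0.0022). Its change in C3.2 was -0.07 (SE 0.0609). COX17 (0.40), the copper chaperone of cytochrome oxidase, and COMMD1 (0.32) also rose in C17.2, and both calls held in 3 of 8 fits without 1 library. Of 12 tested iron-handling genes, 3 rose and 1 fell in C17.2, and 1 rose and 1 fell in C3.2. The transferrin receptor TFRC rose in C17.2 (0.44, SE 0.0699), and the mitochondrial iron importer SLC25A37 fell (-0.64, SE 0.0524). The metalloreductase STEAP3 rose in both clones (0.35 and 0.45, SE 0.0919), and ACO1, the iron regulatory protein 1, fell in C3.2 (-0.31, SE 0.0718, adjusted p = 0.0417). The call of ACO1 was lost in all 8 fits without 1 library. The iron medians were -0.003 in C17.2 and 0.01 in C3.2.

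Of 10 tested genes induced by metals, heat or oxidants, 7 rose and 1 fell in C17.2 (median 0.79), and 4 rose and 1 fell in C3.2 (median 0.18). The gene that fell was in both clones SLC7A11, the cystine importer needed for glutathione synthesis: it went from 14.36 and 14.30 to 1.03 and 1.18 TPM in C17.2 (-2.94, SE 0.0738, adjusted p = 8.88e-06), and from 3.44 and 3.67 to 0.84 and 0.79 TPM in C3.2 (-1.40, SE 0.0738, adjusted p = 0.000407). NQO1, an NRF2-controlled quinone reductase, rose in C17.2 (1.29, SE 0.109) and in C3.2 (0.55, SE 0.109), the latter in 1 of 8 fits without 1 library. HSPA1A, an inducible HSP70 gene, rose from 5.69 and 5.82 to 21.89 and 22.63 TPM in C17.2 (1.63, SE 0.0575) and from 9.73 and 10.65 to 18.41 and 16.96 TPM in C3.2 (0.68, SE 0.0575). Its neighbour HSPA1B rose as well (1.20 and 0.96, SE 0.106). The coding sequences of the 2 are nearly identical, so the division of reads between them is uncertain. Among the called genes of this list, all but SLC7A11 thus rose in each clone.

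Of 11 tested genes induced by glucocorticoids, 2 rose and 5 fell in C17.2 (median -0.32), and 5 fell and none rose in C3.2 (median -0.35). BCL6, a transcriptional repressor of B cells, fell in both (-0.96 and -1.17, SE 0.0869). TXNIP, an inhibitor of thioredoxin, fell from 58.5 and 58.4 to 28.9 and 27.5 TPM in C17.2 (-1.18, SE 0.0716) and by a smaller amount in C3.2 (-0.36, SE 0.0716), where the call held in 1 of 8 fits without 1 library. The kinase SGK1 rose in C17.2 (0.75, SE 0.0525). CXCR4, a chemokine receptor, fell in C3.2 (-0.74, SE 0.0732) and in C17.2 (-0.32, SE 0.0732), where the call was lost both without scaling and after rescaling to protein-coding genes (adjusted p up to 0.0989, limma). DUSP1, a MAP kinase phosphatase, rose in C17.2 (0.47, SE 0.0513) and fell in C3.2 (-0.41, SE 0.0513). MT2A is known to be induced by glucocorticoids, but this list was not a test of that route.

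Of 5 tested transcription regulators (CREBBP, EP300, NR3C1, HSF1 and SP1), 2 fell in C17.2 and none passed in C3.2 (medians -0.02 and 0.04). The 5 are keyed as MTF1 cofactors in the plot, although NR3C1 is the glucocorticoid receptor. HSF1, the heat shock factor, fell by 0.30 (SE 0.0710, adjusted p = 0.0225) and SP1 dropped by 0.26 (SE 0.0477, adjusted p = 0.00949). Neither passed on TPM as deposited. Besides those named above, calls were lost in some fits without 1 library: in C17.2 those of SLC39A7 (held in 6 of 8), STEAP3 (5), CXCR4 (5), HSF1 (3) and SP1 (7), and in C3.2 those of STEAP3 (4), DUSP1 (6) and HSPA1B (7). With no filter on low values, the calls of COX17, COMMD1 and STEAP3 in C17.2 and of STEAP3, NQO1, TXNIP and ACO1 in C3.2 were lost. When the 4 libraries of C3.2 were fitted alone, only SLC7A11 and HSPA1B of the genes named above kept their call in C3.2. With the 4 libraries of C17.2 fitted alone, the calls of COMMD1, STEAP3 and CXCR4 in C17.2 were lost. Among the other metallothioneins only MT1XP1 entered the test, through 1 parental library of C17.2 (1.27 TPM). It did not pass in C17.2 (-0.94, adjusted p = 0.0556, limma) or in C3.2 (-0.36). In C17.2 it was called lower on TPM as deposited, after rescaling to protein-coding genes and with no intensity trend. Since it passed the filter only through parental C17.2, nothing is read from these calls.

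**Figure D4:**
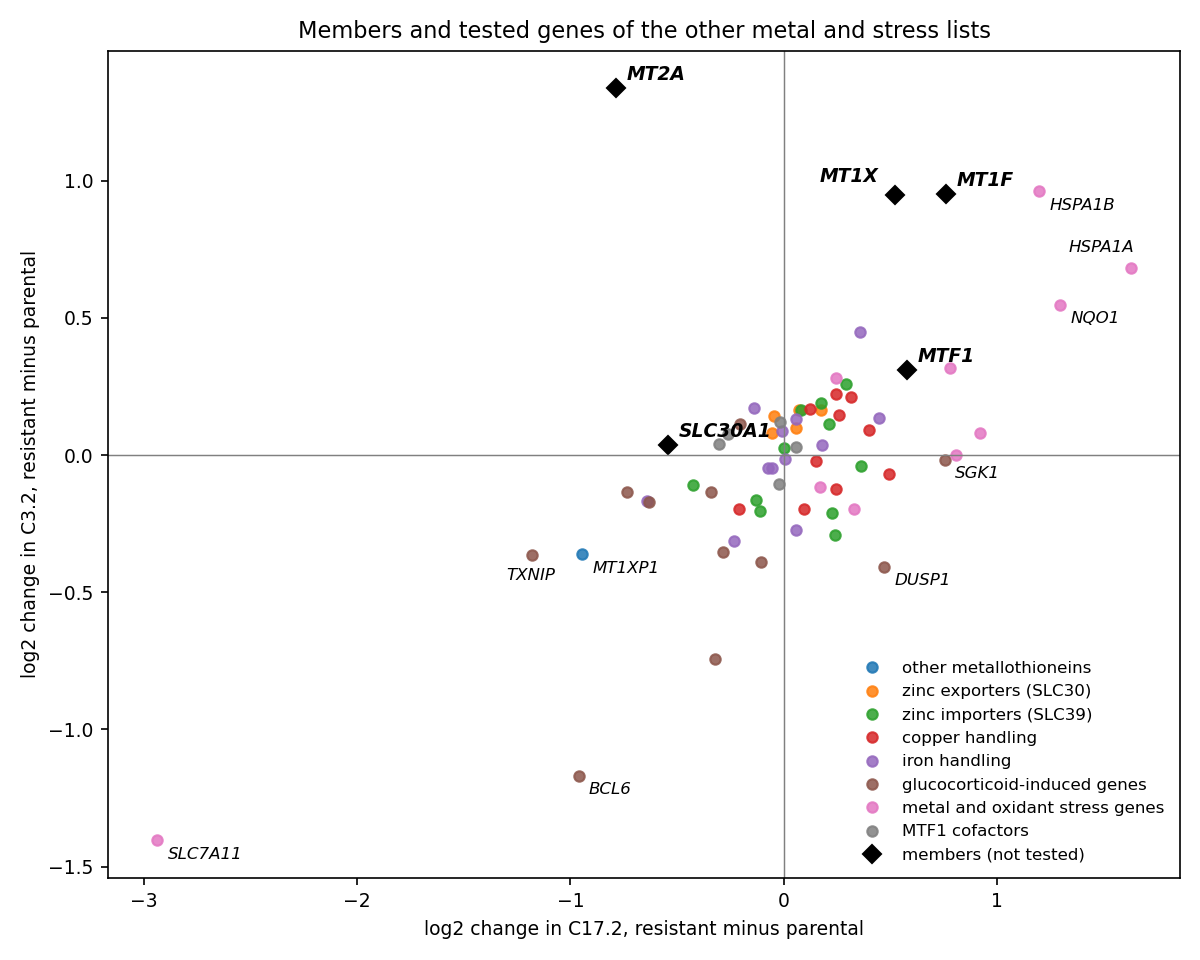
Log2 change, resistant minus parental, in C17.2 (horizontal axis) and C3.2 (vertical axis) for the 65 tested genes of the lists (circles, colored by list) and for 5 of the 7 described genes (black diamonds; MT1E and MT1G are left out). MT2A lies highest, at -0.79 and 1.34, SLC7A11 lies at the lower left, at -2.94 and -1.40, and the 5 zinc exporters lie near 0 in both clones.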

How the data were processed

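RNA-seq of 8 libraries was used. Reads were trimmed by the authors (Trim Galore 0.6.3), mapped to GRCh38 (hg38; STAR 2.7.9a) and quantified on the genes of Gencode release 31 (RSEM 1.3.1). The deposited values are TPM, which the authors did not scale between libraries. Depth is lost in TPM, and the counts that the study tested with voom and limma were not used here. GEO gives single-end and the study's methods paired-end reads.

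Genes under a TPM of 1 in every library were dropped, which left 15614. Scaling factors (0.893 to 1.16) were trimmed means of log2 ratios to the average library, with 30% of ratios and 5% of levels removed from each end. Protein-coding genes held 36.0 to 43.3% of TPM. The test was limma 3.58.1 (R 4.3.3) on log2(scaled TPM + 1), with moderated variances that follow the level (eBayes, trend) and 1 model of 4 groups, two-sided, with Benjamini-Hochberg adjustment and a threshold of 0.05. Fold changes on this scale understate those of low genes. An exact permutation test of 2 against 2 libraries cannot go below p = 0.333. On simulated data of 15614 genes for resistant against parental C3.2, the model recovered 73.5% of 200 genes changed by a log2 value of 1, with 2% of calls false. The noise was independent and drawn with the spread between these libraries, so this 2% does not cover differences between cultures.

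The genes and lists were chosen with earlier results of these data known. Named were all 7 genes, up to 3 called genes with the largest change per list and clone, the 5 nearest tested genes on each side of the cluster, and the 5 genes most correlated with MT2A. Of the lists, 2 of 96 symbols were not matched. A marker of the B lineage is not reported here. Promoters came from RefSeq (GRCh38.p14). Tables and plots used Python 3.11.15, pandas 2.3.3 and matplotlib 3.10.9. Scaling, pseudocount, filter, model and left-out libraries were varied (closing section).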

Additional observations from a re-analysis of the deposited data

Results flagged for a closer look

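For 11 named genes of the lists, the change in C17.2 minus that in C3.2 passed the test of that difference (limma, adjusted p under 0.05, log2 scale, 2 libraries a group). It was -0.32 for SLC39A9 (adjusted p = 0.0478), 0.53 for SLC39A6 (0.00815), 0.56 for SOD1 (0.0137), -0.48 for SLC25A37 (0.0145), 0.77 for SGK1 (0.00313) and 0.87 for DUSP1 (0.00187). For the others it was -0.82 for TXNIP (0.00662), -1.53 for SLC7A11 (0.00109), 0.74 for NQO1 (0.0327), 0.95 for HSPA1A (0.00208) and -0.34 for SP1 (0.0305). SLC39A6 and DUSP1 passed with opposite signs in the clones. The difference of SLC39A9 and that of NQO1 each passed in 1 of 8 fits without 1 library, that of SP1 in 2 of 8, that of SOD1 in 3 of 8 and that of SLC25A37 in 4 of 8. The other 6 passed in all 8. Other processing ended the call of SLC39A9 (TPM as deposited, no filter on low values, no intensity trend), SP1 (TPM as deposited, no intensity trend), SLC25A37 (TPM as deposited) and NQO1 (no filter). The call of SLC39A6 within C3.2 was lost on TPM as deposited.

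Of the 10 neighbours of the metallothionein cluster, 3 passed the same test: HERPUD1 (-1.51, adjusted p = 0.00164, limma), CPNE2 (-1.05, adjusted p = 0.00698) and NLRC5 (-0.73, adjusted p = 0.0222). The difference of NLRC5 passed in 2 of 8 fits without 1 library and was lost with no filter, and the others passed in every fit run.

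In C17.2, MT2A (-0.79) and MT1E (-0.64) had both resistant libraries below both parental ones, and in C3.2 above them. For MT1E in C3.2 these were 0.15 and 0.06 TPM against 0 in both parental libraries, so no fold is given there. For these 2 genes, chosen with this contrast known, the difference was not tested. The MT1E value ranged from -0.91 to -0.37 on leaving out 1 library.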

How the results depend on the processing

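No called value changed direction under the alternatives run, whereas some list medians within 0.05 of 0 changed sign with scaling. For C3.2, 1173 genes were called with no filter on low values and 74 when its 4 libraries were fitted alone, against 1773, and 8 and 2 of the list genes were called, against 13; the first tests more genes and the second uses fewer libraries. The summed metallothionein log2 ratio of C17.2 was 0.27 without scaling and 0.19 when TPM was rescaled to protein-coding genes. That rescaling also gave 3133 higher and 1723 lower calls in C17.2 and 1703 and 725 in C3.2.

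Leaving out each library gave 2374 to 4552 calls in C17.2 (4261 with all 8), 325 to 1785 in C3.2, 541 to 1747 for the difference of the clones (1548 with all 8) and 1550 to 3803 between parental clones (3516 with all 8). It gave 20 to 32 list genes in C17.2 (29 with all 8) and 6 to 10 in C3.2, and summed log2 ratios of 0.065 to 0.153 and of 0.92 to 1.32. The libraries without which the C3.2 count fell by over 1.5 times were parental replicates 1 (325) and 2 (396) and resistant replicate 2 (849) of C3.2, and parental replicates 1 (1010) and 2 (995) of C17.2. For C17.2 they were its parental replicates 1 (2374) and 2 (2522) and resistant replicate 2 (2636). For the difference of the clones they were all libraries other than the C3.2 resistant ones, and between parental clones each of the 4 parental libraries. For the list genes in C3.2 they were its parental replicates (6 each) and resistant replicate 2 (8). Where a group kept 1 library, that library was assumed to vary like the other groups.

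MT2A between parental clones had adjusted p up to 0.0994 in 2 of 7 other processing settings (no filter, no intensity trend). No paired analysis was possible because the labels give the parental and resistant libraries no shared replicate numbers. TPM gives no depth, so the counting error of low levels such as those of MT1E and MT1G could not be estimated here.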
